A study of Arabidopsis thaliana with 11 samples.

Results

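A pair of stages of the stomatal lineage of Arabidopsis thaliana was compared across genes: cells sorted by the activity of the MUTE promoter, the later stage, against cells sorted by a SPCH fusion protein, the earlier stage. The comparison used every gene whose deposited log2 value reached 3.32, a linear value of 10, in 2 or more of the 5 libraries of these stages. This kept 29036 of the 33602 genes in the table. Most of them, 25812 genes, reached that value in 2 or more libraries through both stages, 2395 through the SPCH-sorted libraries alone, 330 through the MUTE-sorted libraries alone, and 499 through 1 library of each. Just inside the limit lay AT5G14010, whose second-highest value was 3.32, and just outside it AT3G60270, at 3.319.

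Each library held RNA from fluorescent cells sorted out of protoplasts, which had been released in 2 h from the aerial tissue of 10-day-old seedlings. All lines were in the Columbia (Col) background and grew on agar under 16 h of light at 25 °C. Cells of the later stage, called MG here as in the labels, carried MUTEp::nucGFP, a nuclear green fluorescent protein driven by the MUTE promoter, and are labelled late meristemoids and young guard mother cells (n = 2). Cells of the earlier stage, called SSY, carried SPCHp::SPCH-YFP, SPCH fused to a yellow fluorescent protein, and are labelled meristemoid mother cells and young meristemoids (n = 3). The transgene transcript of SSY cannot be told apart from native SPCH in a gene-level table. A further 6 libraries, 2 each, shared the fit: the whole epidermis (ML1Y, ML1p::YFP-RCI2A), guard mother cells that have matured, with young guard cells (FGF, FAMAp::GFP-FAMA) and mature guard cells (E1728G, an enhancer trap line). Sorts yielded 4000 to 20000 cells and about 10 ng of total RNA, which was amplified before sequencing.

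As background, SPCH, MUTE and FAMA are related basic helix-loop-helix transcription factors that act in sequence. SPCH starts the asymmetric divisions that make meristemoids, MUTE ends those divisions and turns the meristemoid into a guard mother cell, and FAMA ends the symmetric division that yields a pair of guard cells. Secreted peptides of the EPF family signal through ERECTA-family receptor kinases and the receptor-like protein TMM to limit and space these divisions.

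The SSY libraries stood apart from the rest. The interquartile range of the log2 values over genes was 2.13 to 2.30 in SSY and 2.67 to 3.28 in the other 8 libraries, and the root-mean-square SD between replicates was 0.908 in SSY, 0.744 in MG and 0.456 to 0.668 in the other groups. As a description over genes, MG replicate 1 had its highest rank correlation with an FGF library (0.907), and so had SSY replicate 1 (0.813, against 0.799 within SSY). The difference between the stages also moved with a gene's overall level: over the quartiles of genes by mean over all 11 libraries, lowest to highest, the median MG minus SSY difference was -0.32, -0.28, 0.09 and 0.75. The part of these features in the results below was not tested, apart from the alternative scalings and left-out libraries.

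In MG 522 genes were higher (1.75% of 29853 tested) and 112 were lower (0.375%) than in SSY. This count is from a limma fit over all 11 libraries at an adjusted p of 0.05, and 5192 genes had an unadjusted p under 0.05. The median size of a called rise was 2.99 on the log2 scale, with a range of 1.80 to 5.48, and that of a called fall 2.77, with a range of 1.67 to 6.84. Over all tested genes the median difference was -0.05, and 14253 genes had a positive difference against 15600 negative ones. Calls were uneven over the level of the gene: the quartiles from lowest to highest held 18, 76, 179 and 249 of the rises and 36, 34, 34 and 8 of the falls. Of the genes that reached 3.32 through both stages 502 rose and 80 fell. A further 20 rises came from genes that reached it through MG alone and 32 falls from genes that reached it through SSY alone, genes whose entry already favours that direction. The groups did not overlap in any of the 634 called genes (2.12%). Both MG libraries lay above all 3 SSY libraries in 4689 genes (15.7%) and below them in 4618 (15.5%).

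These counts leaned on the shared fit and on single libraries. In a fit of the 5 libraries alone, 1 gene was higher (DI21) and 1 was lower (AT5G41505), with 3544 genes at an unadjusted p under 0.05. Without MG replicate 2, when the lone MG library is assumed to vary like the other groups, 61 genes were higher and 7 lower. Without MG replicate 1 there were 668 and 40, without SSY replicate 1 529 and 304, without SSY replicate 2 227 and 78, and without SSY replicate 3 241 and 67. Of the called genes, 15 of the rises and 7 of the falls held in every such fit. Among the 47 called genes picked out by the naming rules, 41 lost their call without MG replicate 2, and 6 held in all 5 fits: CYP86A8, DI21, LCR20, MCT1, NSI and PM-ANT.

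**Figure D1:**
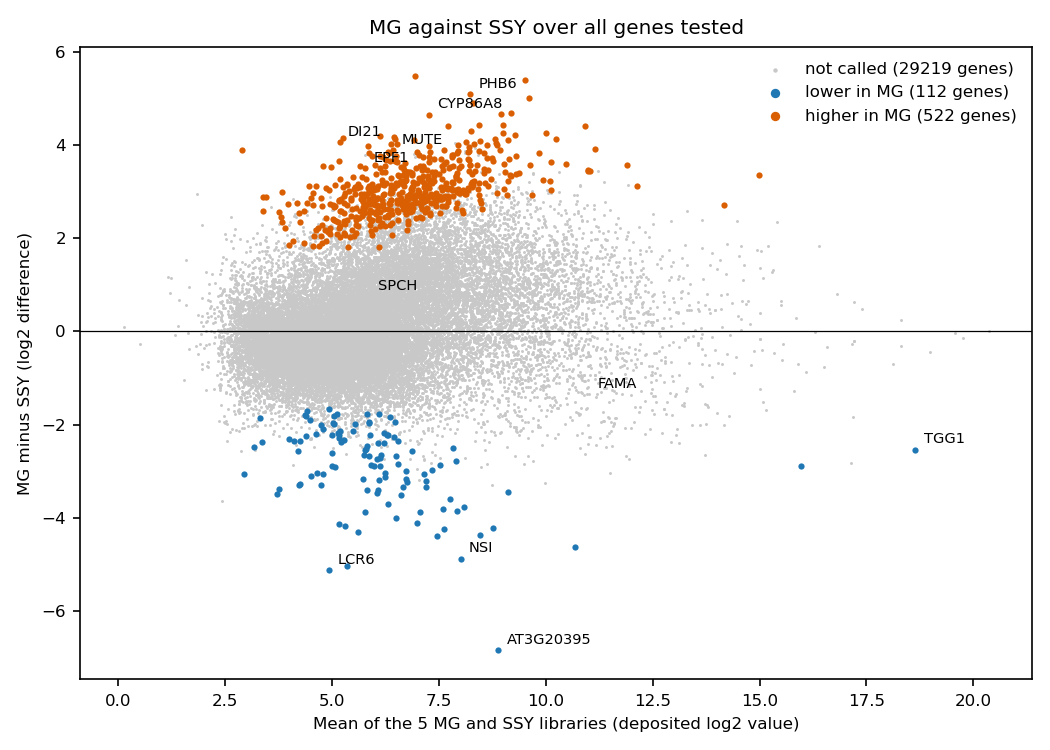
Difference between the stages (MG minus SSY, log2, vertical axis) against the mean deposited log2 value of the 5 MG and SSY libraries (horizontal axis) for the 29853 tested genes, with the 522 genes called higher and the 112 called lower in colour. The rises lie mostly at higher levels than the falls, and with genes ranked by their mean over all 11 libraries the median difference went from -0.32 in the lowest quartile to 0.75 in the highest.

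The other 6 libraries show on which side the called genes departed. The median value of the 522 rises was 8.29 and 8.82 in MG, 5.49 to 5.54 in SSY, 7.30 in both ML1Y libraries, 7.05 and 7.23 in FGF and 6.65 and 6.91 in E1728G. Thus MG was high and SSY low beside the other groups in the median of this set. In 258 of the 522, both MG libraries lay above all 6 others (5.54% of tested genes did so), in 273 all 3 SSY libraries lay below all 6 others (7.16% of tested genes), in 85 both held, and in 76 neither. MG replicate 2 exceeded MG replicate 1 in 334 of the 522, beside 15317 of the 29853 tested genes. The median gap was 0.394 in the rises and 0.029 over all tested genes. Of the 522, MG replicate 2 was higher by more than 2 in 68 and MG replicate 1 in 6, a count not made over all tested genes. The falls were mostly a matter of SSY. Their median value was 6.20, 6.90 and 7.45 in SSY replicates 1, 2 and 3, 4.24 and 4.31 in MG, and 4.33 to 4.55 in the other 6 libraries. In 100 of the 112 falls all SSY libraries lay above all 6 others (6.19% of tested genes), and in 17 both MG libraries lay below them (4.85%). By limma against the mean of ML1Y, FGF and E1728G, SSY had 510 genes higher (1.71%) and 1446 lower (4.84%), whereas MG had 72 higher (0.241%) and 46 lower (0.154%). These contrasts, and the counts and medians of the called genes above, share libraries with the comparison of the stages. The calls were picked for a gap between MG and SSY. Counts above the share of all tested genes, and set medians high or low in those groups, are favoured by that choice. Protein-coding genes made up 503 of the 522 rises and 94 of the 112 falls, beside 25097 of the 29853 tested genes. Pseudogenes made up 7 of the rises (1.34%) and 15 of the falls (13.4%), beside 13.5% of tested genes.

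**Figure D2:**
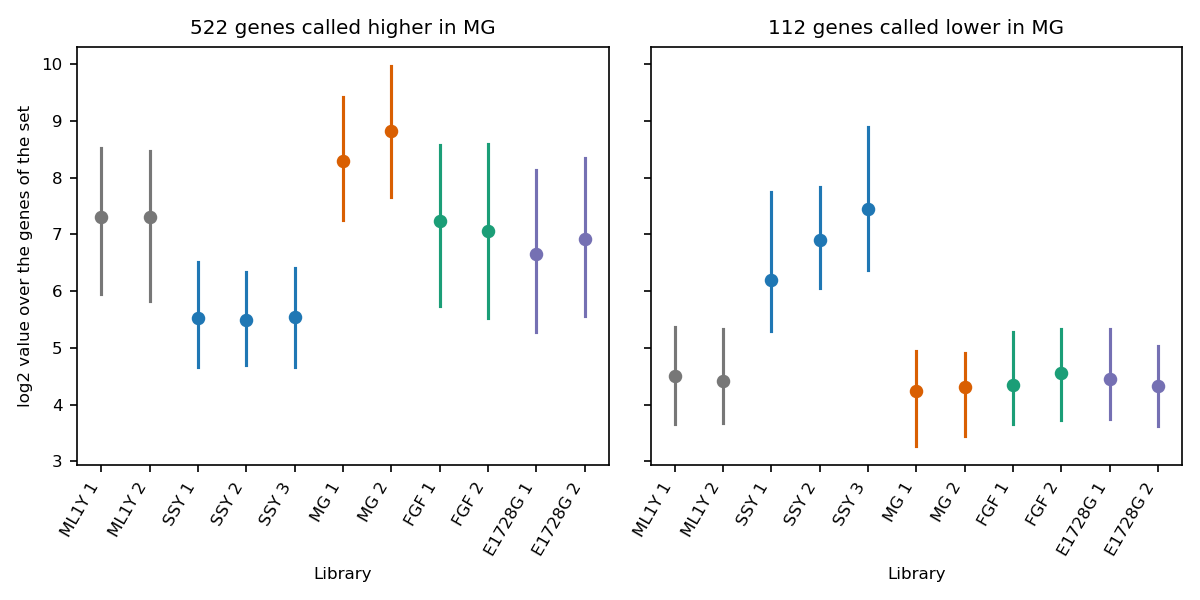
Median log2 value of the genes called higher and of those called lower in MG than in SSY, in each of the 11 libraries along the horizontal axis. Points are medians over the genes of the set and bars run from the first to the last quartile. The rises sat at 8.29 and 8.82 in MG, above every other library, and lowest in SSY, while the falls were above 6 in SSY and below 4.6 elsewhere.

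Among the genes that give the sorts their names, MUTE itself rose 14.8-fold. Its log2 value was 4.56, 4.80 and 5.24 in SSY and 7.65 and 9.86 in MG, with no overlap (difference 3.89 ± 0.58 (SE), limma adjusted p = 0.00872). MUTE was also 4.40 above the mean of the other 3 groups in MG (adjusted p = 0.00377), and 0.51 above it in SSY (adjusted p = 0.511). MUTE was thus highest in the sort named for it, where the nuclear GFP reports the promoter and not the protein. Leaving out a library moved its difference between 2.78 and 4.99, the lower value without MG replicate 2, where the call was lost. SPCH, the marker of the earlier sort, overlapped between the stages. It was at 5.46, 6.12 and 5.15 in SSY and 7.12 and 5.55 in MG, with a difference of 0.76 ± 0.62 (adjusted p = 0.548) that turned to -0.02 without MG replicate 1. Against the mean of the other 3 groups, SPCH in SSY differed by -0.99 (adjusted p = 0.228), and its highest value was 8.26, in an FGF library.

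FAMA, which acts at the last division, was at 12.39, 10.66 and 11.60 in SSY and 10.60 and 9.82 in MG (difference -1.34 ± 0.75, adjusted p = 0.373). All 3 SSY libraries were above both MG libraries, the lowest by a narrow margin. The log2 of the summed linear values over the 4 genes that name the lines was 9.88 and 9.54 in ML1Y. That sum was 14.07 and 14.93 in FGF. FAMA alone was above both ML1Y sums in all 3 SSY libraries and in MG replicate 1. ATML1, a homeodomain factor of the epidermis, was at 7.66, 11.21 and 7.68 in SSY and 9.68 and 9.16 in MG. Its difference of 0.57 ± 0.93 (adjusted p = 0.781) turned to between -0.03 and -0.0039 under 4 of the alternatives. Since SPCH was not highest in the sort named for it, SSY throughout stands for the libraries labelled so. Stage names likewise follow the labels, with no stage inferred from the values.

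Of 19 tested genes of the early lineage, 1 rose (EPF2), beside 1.75% of all tested genes, and none fell, 17 differences were positive, and their median was 0.92 beside -0.05 over all tested genes. EPF2, the peptide that limits entry into the lineage, was at 3.26, 2.29 and 3.13 in SSY and 4.32 and 6.14 in MG (difference 2.34 ± 0.57, adjusted p = 0.0479). MG replicate 2 was the highest of the 5, and the groups did not overlap. EPF2 stayed under 3.32 in all 3 SSY libraries and so entered the comparison through MG alone, where it is high. SDD1, a subtilase that restrains stomatal density, was at 8.52, 8.03 and 8.50 in SSY and 9.69 and 13.77 in MG, and its difference of 3.38 ± 0.96 did not pass (adjusted p = 0.0816). The receptor-like protein gene TMM was at 8.43, 9.96 and 10.32 in SSY and 10.86 and 14.12 in MG (2.92 ± 0.92, adjusted p = 0.117). For both, MG replicate 2 was over 3 log2 units above MG replicate 1, and the call was gained without MG replicate 1. The receptor kinase gene ER was at 6.67, 6.89 and 6.96 in SSY and 9.22 and 8.41 in MG (1.97 ± 0.59, adjusted p = 0.100).

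Of 14 genes in the guard mother cell list 13 were tested (SMR4 was below the filter). MUTE and EPF1 rose (15.4%, beside 1.75% of all tested genes) and none fell. MUTE is the gene whose promoter marked the MG sort, so its rise is favoured by the sorting. The list median was 0.17, which became -0.26 under quantile normalization, -0.18 without SSY replicate 3 and -0.24 without MG replicate 1. EPF1, the peptide that orients spacing divisions, rose 11.3-fold, from 4.22, 4.66 and 4.23 in SSY to 8.05 and 7.68 in MG. The MG libraries lay far above all SSY values, and the difference was 3.49 ± 0.53 (adjusted p = 0.00925). Like MUTE, EPF1 was above the mean of the other sorts in MG, by 3.88 (adjusted p = 0.00377). CYCD7;1, a D-type cyclin of the last division, was at 4.60, 4.50 and 5.44 in SSY and 7.78 and 5.31 in MG, overlapping (1.70, adjusted p = 0.178). EPF1 lost its call without MG replicate 2, with a difference of 3.31 to 3.68 over the fits that left out 1 library. EPF2 kept its call without MG replicate 1 alone among those fits, with a range of 1.43 to 3.25.

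**Figure D3:**
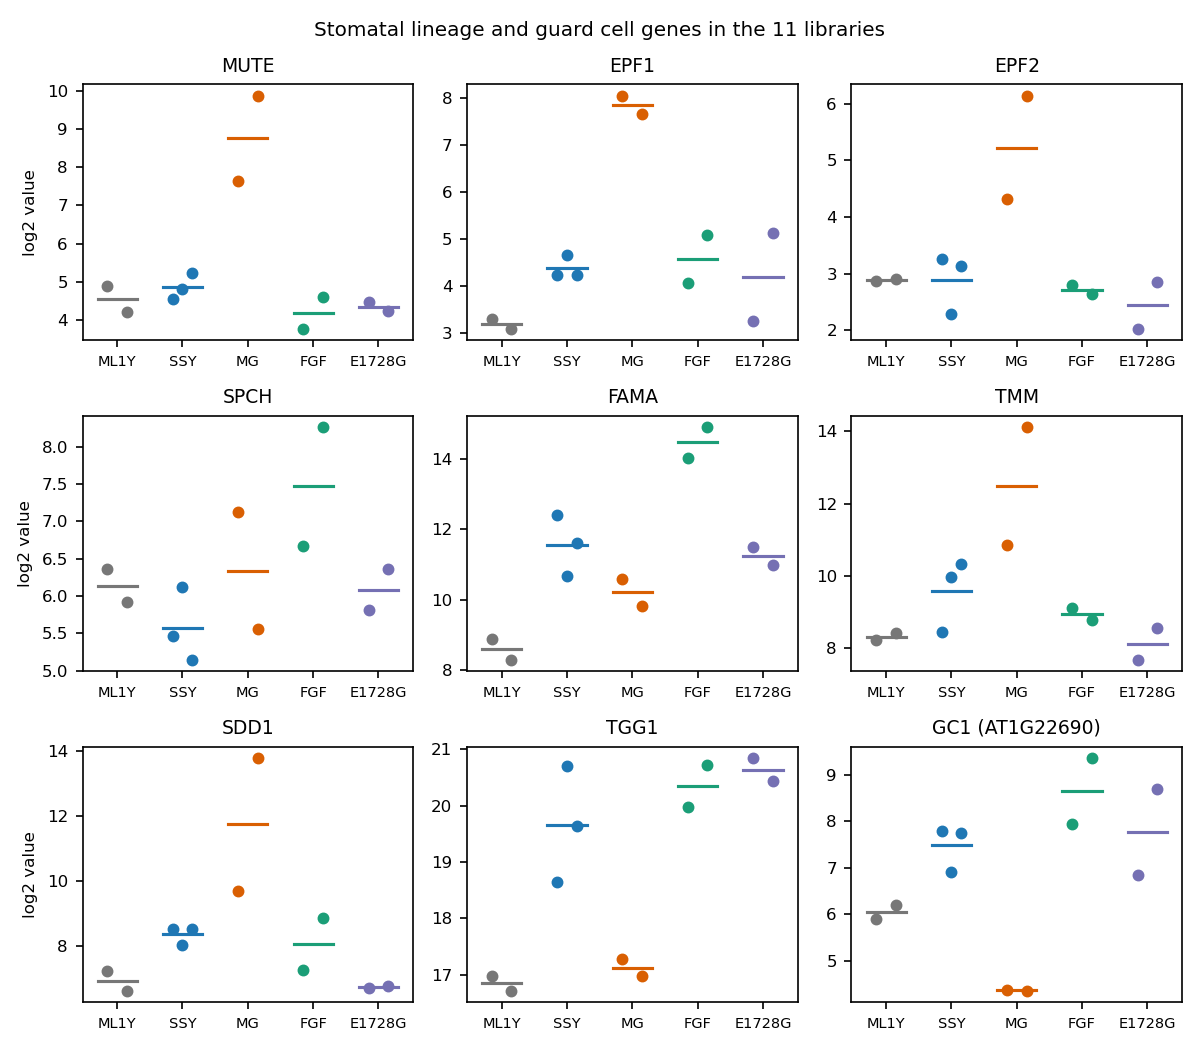
Log2 values (vertical axes) of 9 genes in the 5 groups (horizontal axes), with 1 point per library and a bar at the group mean. MUTE and EPF1 lay in MG at 7.65 or above and in SSY at 5.24 or below, SPCH overlapped between the stages, and TGG1 and GC1 were higher in all SSY than in all MG libraries.

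Among genes of mature guard cells, 2 of 23 tested were lower in MG than in SSY, beside 0.375% of all tested genes, and none rose, with a median of -0.31. The list held 1 fall under quantile normalization and none without either MG library. TGG1, a myrosinase abundant in guard cells, was at 18.64, 20.71 and 19.64 in SSY and 17.27 and 16.98 in MG (difference -2.54 ± 0.49, adjusted p = 0.0197). GC1, whose promoter is used to drive expression in guard cells and which overlaps AT1G22700 in the annotation (not called), was at 7.79, 6.91 and 7.74 in SSY and 4.37 and 4.35 in MG (-3.12 ± 0.66, adjusted p = 0.0275). Both genes were without overlap, and their values in the other sorts stand beside these: TGG1 was at 19.98 and 20.72 in FGF and 20.85 and 20.44 in E1728G, and at 16.98 and 16.71 in ML1Y, while GC1 was at 7.93 and 9.35 in FGF and 6.84 and 8.69 in E1728G. The log2 of the summed linear values over the guard cell list was 19.52 to 20.77 in SSY, 17.36 to 17.65 in MG, 17.23 to 17.54 in ML1Y, 20.23 to 20.88 in FGF and 20.68 to 21.08 in E1728G. In SSY most of this sum was TGG1 alone. The median level of the list was 8.30 to 8.40 in SSY, 8.40 and 7.07 in MG, 8.29 to 8.31 in ML1Y, 9.25 and 9.89 in FGF and 9.89 and 9.92 in E1728G, so by the median SSY lay at the whole epidermis, below the guard cell sorts. In bulk libraries, fewer cells of a type and less RNA per cell cannot be told apart. TGG2 (-2.22, adjusted p = 0.138), the stomatal Dof factor gene SCAP1 (-1.60, adjusted p = 0.257) and the blue-light receptor gene PHOT2 (1.73, adjusted p = 0.202) did not pass. TGG1 lost its call when either MG library was left out (differences of -3.05 to -2.01 over the fits without 1 library), and GC1 without either MG library or SSY replicate 3 (-3.40 to -2.96).

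Of the cell cycle lists, a small number of genes passed, and each of these rose. CYCD3;1, a D-type cyclin of proliferating cells, was at 5.19, 4.81 and 5.75 in SSY and 7.89 and 8.22 in MG (difference 2.81 ± 0.47, adjusted p = 0.0131). In MG it was 2.46 above the mean of the other sorts (adjusted p = 0.0239), close to the ML1Y values of 7.40 and 7.49. E2FB, an E2F transcription factor that promotes division, was at 6.68, 7.44 and 6.71 in SSY and 9.07 and 10.96 in MG (3.07 ± 0.75, adjusted p = 0.0488). These were the 2 rises among 27 tested D-type cyclins and regulators of cell cycle entry (7.41%, beside 1.75% of all tested genes, with no fall and a median of 0.30). CYCD3;1 lost its call without MG replicate 2 (range 2.59 to 3.06), and E2FB kept it without MG replicate 1 alone (range 2.12 to 4.01).

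Among 24 tested DNA replication genes 2 rose (8.33%) and none fell, with a median of 0.22. No gene of that list passed under quantile normalization, and without MG replicate 1 its median turned to -0.16. PCNA1, the sliding clamp of DNA polymerase, was at 4.40, 4.76 and 4.67 in SSY and 7.48 and 6.90 in MG (2.58 ± 0.61, adjusted p = 0.0445). MCM2, a subunit of the replicative helicase, was at 6.30, 5.47 and 5.90 in SSY and 8.61 and 7.50 in MG (2.17 ± 0.53, adjusted p = 0.0477). Both genes were free of overlap between the stages, but MCM2 kept its call without SSY replicate 1 alone (range 1.62 to 2.73) and PCNA1 in none of the 5 fits without 1 library (2.29 to 2.87). Of 30 tested mitotic genes, KNOLLE alone rose (3.33%) and none fell, and the median of -0.09 lay between -0.32 and 0.16 when 1 library was left out. Under quantile normalization no gene of the list passed. KNOLLE, the syntaxin of the cell plate, was at 5.58, 6.65 and 5.11 in SSY and 8.64 and 8.70 in MG (2.89 ± 0.58, adjusted p = 0.0238). The mitotic kinase gene CDKB2;1 was at 5.19, 6.36 and 5.57 in SSY and 8.53 and 7.81 in MG, and just missed the threshold (2.46 ± 0.62, adjusted p = 0.0562). AUR2, an Aurora kinase gene, had a negative difference (-1.75, adjusted p = 0.0978), so the signs within the list were mixed. KNOLLE lost its call without SSY replicate 3 and without either MG library (range 2.55 to 3.32). KNOLLE and CYCD3;1 overlap another gene in the annotation, and the reads of the partner could be counted with them.

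The epidermis and cuticle list held 5 rises among 22 tested genes, 22.7% beside 1.75% over all, with no fall and a median of 1.27. CYP86A8, a fatty acid hydroxylase that makes cutin monomers, rose 25.0-fold, from 5.59, 5.23 and 5.38 in SSY to 9.13 and 10.96 in MG (difference 4.64 ± 0.61, adjusted p = 0.00511). It was also above the mean of the other sorts in MG, by 4.22 (adjusted p = 0.00543), and is the only member that kept its call without MG replicate 2. GPAT4, an acyltransferase of cutin synthesis, was at 7.40, 6.28 and 6.29 in SSY and 10.49 and 10.55 in MG (3.86 ± 0.66, adjusted p = 0.0142). The wax exporter gene CER5 was at 9.17, 10.08 and 7.83 in SSY and 13.49 and 11.75 in MG (3.59, adjusted p = 0.0373). In each of these 3 genes both MG libraries were above all SSY libraries by more than 1 log2 unit. The lipid transfer protein genes LTP1 (5.02 to 7.45 in SSY, 9.08 and 9.15 in MG, difference 3.13, adjusted p = 0.0317) and LTP2 (4.20 to 6.89 in SSY, 8.27 and 9.31 in MG, 2.97, adjusted p = 0.0490) made up the other rises, and as close paralogs they may share reads. CYP86A2, a relative of CYP86A8, did not pass (2.64, adjusted p = 0.0638). Under quantile normalization, or without MG replicate 1, the list held 2 rises. Without 1 library the differences ranged from 3.73 to 5.56 for CYP86A8, 3.67 to 4.23 for GPAT4, 2.72 to 4.46 for CER5 and 2.65 to 3.87 for LTP1. CER5 also lost its call without MG replicate 1 or SSY replicate 3, and LTP1 without MG replicate 1 or SSY replicate 2 or 3.

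Of the 9 tested HD-ZIP IV genes, which encode the epidermal homeodomain family of ATML1, none passed and 8 differences were positive, with a median of 0.57 that became -0.004 under quantile normalization and 0.16 without SSY replicate 3. HDG1 (2.00, adjusted p = 0.0811) and HDG5 (2.18, adjusted p = 0.106) had positive differences above the list median, and HDG12 a negative one of -1.67 with its highest value, 11.95, in SSY replicate 3.

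Among the lists for other cell types that could enter a leaf sort, 1 gene passed. Among 11 tested trichome genes, TTG2, a WRKY factor of trichomes and seed coat, fell: it was at 7.89, 7.58 and 10.11 in SSY and 5.16 and 5.22 in MG (-3.34 ± 0.66, adjusted p = 0.0221). It was the single fall of that list (0.375% of all tested genes fell), none rose, and the median was -0.47. TTG2 lost its call when either MG library was left out, with differences of -3.81 to -2.55 over the 5 fits. Of 14 tested genes of the vasculature and 18 of the meristem, none passed in either direction, with medians of -0.32 and -0.26. The 22 tested antenna and photosystem genes, whose proteins harvest light in green mesophyll, had no call, 19 positive differences and a median of 1.01. Against the mean of the other sorts their medians were -2.49 in SSY and -1.62 in MG. Summed over that list, the log2 level was 12.98 to 14.39 in SSY, 14.08 to 14.18 in MG, 14.02 to 14.30 in FGF and 14.20 to 14.97 in E1728G, against 18.06 to 18.59 in ML1Y, which alone stood apart.

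The largest rises among genes with a symbol are given by what each gene is known to do, an order chosen after the genes were picked and not a test of any theme. PHB6, a prohibitin of mitochondria, rose 34.0-fold, from 5.82, 6.51 and 6.24 in SSY to 10.10 and 12.45 in MG (difference 5.09 ± 0.75, adjusted p = 0.00872). MSD1, the mitochondrial manganese superoxide dismutase, was at 6.51, 6.81 and 6.67 in SSY and 9.87 and 12.30 in MG (4.42 ± 0.77, adjusted p = 0.0142). In MSD1 it was SSY that departed from the other sorts, by -3.19 (adjusted p = 0.00814), whereas MG differed from them by 1.23 (adjusted p = 0.633). CYTC-1, a cytochrome c, was at 6.90, 6.62 and 6.97 in SSY and 9.49 and 12.32 in MG (adjusted p = 0.0234). In all 3 mitochondrial genes MG replicate 2 was over 2 log2 units above replicate 1, and without it the differences, none of them called, were the lowest of the fits without 1 library, at 3.91, 3.21 and 2.66. CYTC-1 also lost its call without SSY replicate 2 or 3.

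MAPKKK18, a kinase activated by abscisic acid, was at 5.89, 5.91 and 7.18 in SSY and 11.06 and 11.39 in MG (4.90 ± 0.69, adjusted p = 0.00713). DI21, a drought-induced protein gene, was at 3.80, 3.63 and 3.23 in SSY and 7.65 and 7.56 in MG (4.06 ± 0.42, adjusted p = 0.00101), 16.6-fold. It was below the other sorts in SSY (-1.51, adjusted p = 0.0159) and above them in MG (2.55, adjusted p = 0.0112). The zinc finger gene OZF2 was at 4.48, 5.17 and 6.17 in SSY and 9.31 and 9.45 in MG (4.11 ± 0.61, adjusted p = 0.00872). PEPR1, a receptor for the Pep danger peptides, was at 8.58, 9.76 and 9.10 in SSY and 12.32 and 14.77 in MG (4.40 ± 0.81, adjusted p = 0.0177). The transcription factor genes WRKY18 (6.90 to 8.48 in SSY, 10.74 and 12.43 in MG, difference 4.1015, adjusted p = 0.0166) and RAP2.6 (6.01 to 6.97 in SSY, 9.16 and 12.48 in MG, 4.29, adjusted p = 0.0234) also rose. DI21 kept its call in every fit without 1 library (3.89 to 4.18), and the other 5 genes lost it without MG replicate 2, RAP2.6 also without SSY replicate 2.

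SYP61, a syntaxin of the trans-Golgi network, was at 6.14, 5.88 and 5.80 in SSY and 8.31 and 12.37 in MG (4.40 ± 0.88, adjusted p = 0.0234). HAP13, an adaptor subunit of the same compartment, was at 5.57, 6.80 and 7.17 in SSY and 10.14 and 11.002 in MG (4.06 ± 0.66, adjusted p = 0.0129). The lipid kinase relative PI4K GAMMA 7 was at 7.39, 7.26 and 7.29 in SSY and 9.90 and 14.09 in MG (4.69 ± 0.95, adjusted p = 0.0241), with the widest gap between the MG libraries of the genes described here. NADK1, an NAD kinase, was at 8.99, 8.88 and 7.90 in SSY and 12.50 and 12.95 in MG (4.13 ± 0.73, adjusted p = 0.0146), while ML1Y was higher still, at 14.26 and 13.96. UGP3, which supplies UDP-glucose for sulfolipids, was at 7.56, 6.56 and 7.35 in SSY and 11.32 and 11.26 in MG (4.13 ± 0.67, adjusted p = 0.0127). NADK1, UGP3 and CYTC-1 each overlap another gene in the annotation, and no tested partner was called. All 5 lost their call without MG replicate 2, where the difference was 2.37 for SYP61 and 2.59 for PI4K GAMMA 7, and those 2 genes also without SSY replicate 2 or 3. The largest rise of all, chosen here after its values were seen, was AT3G15750, annotated as a Yae1 domain protein, at 5.01, 4.68 and 4.54 in SSY and 11.56 and 8.89 in MG (5.48 ± 0.69, adjusted p = 0.00462).

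**Figure D4:**
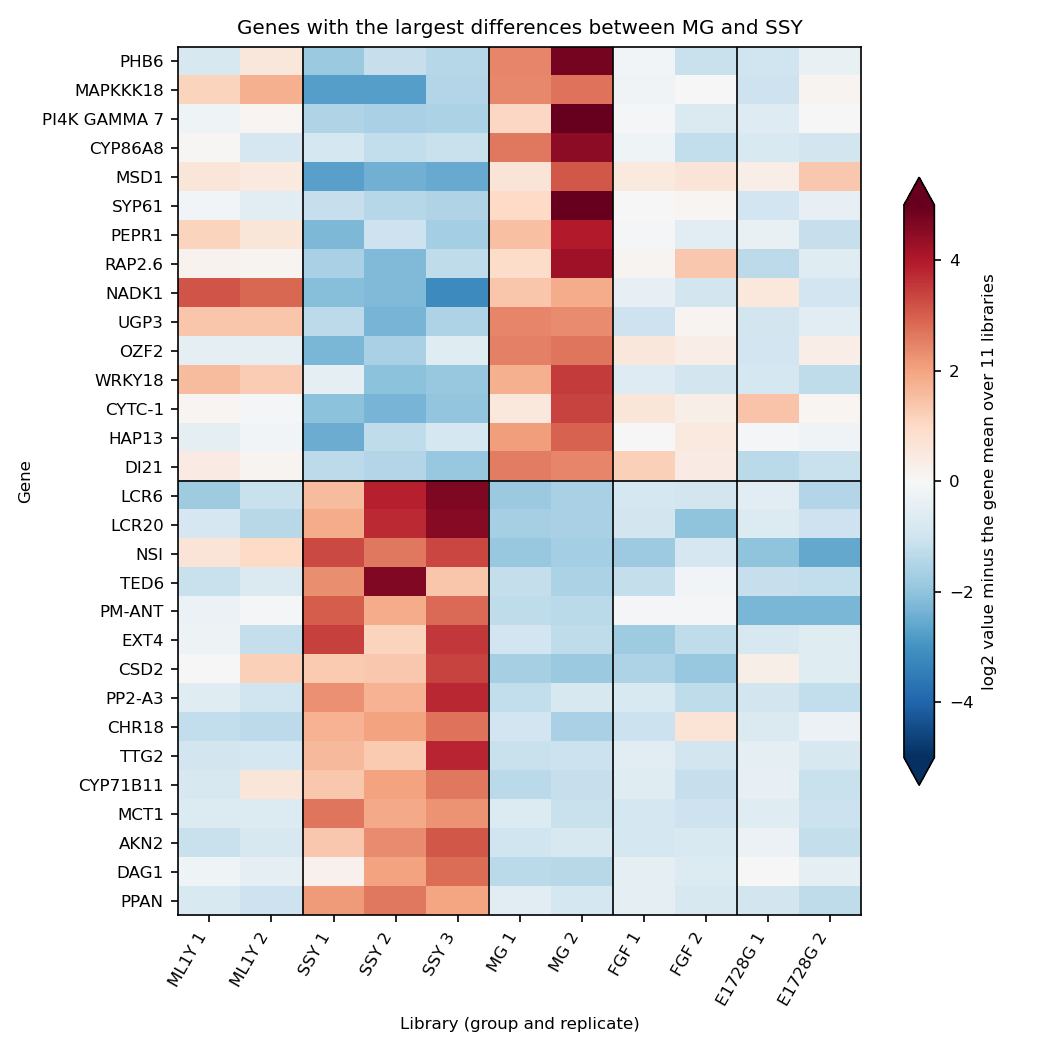
Heat map of the 15 largest called rises (upper block) and 15 largest called falls (lower block) among genes with a symbol, 1 row per gene and 1 column per library. Colour gives the log2 value minus the gene's mean over the 11 libraries, red above and blue below it. The rises are red in both MG libraries, most deeply in MG 2 for PI4K GAMMA 7 and SYP61, and the falls are red in the 3 SSY libraries.

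The largest fall was on the SSY side. AT3G20395, annotated as a RING/U-box protein and chosen here after its values were seen, had the largest difference and the smallest p of all genes. It was at 11.01, 12.03 and 11.83 in SSY, 4.92 and 4.64 in MG and 4.61 to 5.11 in the other 6 libraries (-6.84 ± 0.53, 115-fold, adjusted p = 6.64e-05). The gap was on the SSY side, 6.77 above the other sorts (adjusted p = 2.36e-06) against -0.07 for MG. AT5G41505, also chosen after its values were seen, was at 6.33, 7.16 and 6.95 in SSY and 2.53 and 2.85 in MG (-4.13 ± 0.41, adjusted p = 0.00101). Unlike AT3G20395, which entered the comparison through both stages, AT5G41505 entered through SSY alone.

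LCR6 and LCR20, neighbouring genes for small cysteine-rich peptides, both fell. They stayed under 3.32 in both MG libraries and so entered the comparison through SSY alone, where they are high. LCR6 was at 5.18, 7.49 and 8.26 in SSY and 1.75 and 1.96 in MG (-5.12 ± 0.70, adjusted p = 0.00609), and LCR20 was at 5.85, 7.72 and 8.54 in SSY and 2.32 and 2.35 in MG (-5.04 ± 0.64, adjusted p = 0.00462). In both, SSY replicate 3 was the highest library, and LCR6 but not LCR20 lost its call without MG replicate 2. NSI, an acetyltransferase gene, was at 10.16, 9.50 and 10.21 in SSY and 4.98 and 5.19 in MG (-4.88 ± 0.55, adjusted p = 0.00255). NSI overlaps PRK, the phosphoribulokinase gene, which did not pass (9.45, 11.88 and 9.45 in SSY, 10.70 and 9.91 in MG, adjusted p = 0.984).

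EXT4, an extensin of the cell wall, was at 9.85, 7.56 and 9.96 in SSY and 5.47 and 5.16 in MG (-3.81 ± 0.68, adjusted p = 0.0154). TED6, a gene of differentiating xylem vessel elements, was at 6.51, 8.81 and 5.57 in SSY and 2.98 and 2.60 in MG (-4.17 ± 0.71, adjusted p = 0.0135), and entered the comparison through SSY alone. PM-ANT, an adenine nucleotide transporter, was at 9.05, 7.91 and 8.88 in SSY and 4.77 and 4.69 in MG (-3.88 ± 0.48, adjusted p = 0.00462). In these 3 genes the MG libraries were within 0.5 of each other, and the SSY libraries spread over more than 1 log2 unit. CSD2, the chloroplast copper/zinc superoxide dismutase, fell where its mitochondrial counterpart MSD1 rose: it was at 8.90, 8.91 and 10.97 in SSY and 5.93 and 5.74 in MG (-3.76 ± 0.72, adjusted p = 0.0198).

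CHR18, a chromatin remodeller, was at 10.05, 10.35 and 11.04 in SSY and 7.38 and 6.71 in MG (-3.44 ± 0.69, adjusted p = 0.0237). MCT1, which has an RNA recognition motif, was at 7.78, 6.98 and 7.36 in SSY and 4.40 and 3.98 in MG (-3.18 ± 0.42, adjusted p = 0.00511). PPAN, a factor of ribosome assembly, was at 8.41, 8.92 and 8.25 in SSY and 5.70 and 5.40 in MG (-2.97 ± 0.48, adjusted p = 0.0127). All 3 were without overlap. DAG1, a Dof factor of seed germination (-3.05, adjusted p = 0.0238), PP2-A3, a relative of phloem lectins (-3.60, adjusted p = 0.0135), AKN2, an adenylylsulfate kinase (-3.17, adjusted p = 0.0135), and the cytochrome P450 gene CYP71B11 (-3.24, adjusted p = 0.0142) fell too. Of the falls named in this and the previous paragraph, PM-ANT and MCT1 kept their calls in every fit without 1 library, and the others lost it without MG replicate 2. DAG1 also lost it without MG replicate 1 or SSY replicate 2 or 3 (-3.77 to -2.49), CSD2 without MG replicate 1 and CHR18 without SSY replicate 3.

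Ribosomal protein genes had mostly positive differences. Of 17 listed and tested, 2 rose (11.8%, beside 1.75%), none fell, 16 had a positive difference, and the median was 1.37. RPL4D was at 8.04, 7.35 and 6.51 in SSY and 10.73 and 12.38 in MG (4.25 ± 0.73, adjusted p = 0.0142), and RPS5A at 6.42, 5.88 and 5.86 in SSY and 8.48 and 11.42 in MG (3.90 ± 0.86, adjusted p = 0.0324). Neither overlapped, and MG replicate 2 was the highest library in both. Without it the differences were 3.43 and 2.43 and neither was called, and RPS5A also lost its call without SSY replicate 2 or 3. A wider family, chosen after these values were seen, took all 337 tested nuclear genes whose product name holds "ribosomal protein", 15 of them named for an organelle. Of these, 26 rose (7.72%, beside 1.75% of all tested genes), none fell, 263 differences were positive (14253 of 29853 over all), and the median was 0.87. The median level of the family was 5.61, 5.56 and 5.70 in SSY, 6.97 and 6.55 in MG, 7.10 and 7.23 in ML1Y, 6.12 and 5.76 in FGF and 5.92 and 6.17 in E1728G, so that MG lay between the whole epidermis and the guard cell sorts. The family held 13 rises under quantile normalization, 32 without MG replicate 1 and 4 without MG replicate 2. Members have near-identical copies, and the split of reads between copies is uncertain.

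The remaining lists held few or no calls. Of 133 chloroplast-encoded genes 114 were tested and 1 rose (ATCG00210, 2.89 ± 0.63, adjusted p = 0.0312, lost in each of the 5 fits without 1 library, and entered through MG alone), with a median of 0.53, and of 146 mitochondrion-encoded genes 88 were tested and 1 fell (ATMG01410, -2.29 ± 0.54, adjusted p = 0.0428, kept without SSY replicate 1 alone), with a median of 0.28 that became -0.04 without MG replicate 2. Of the 17 Calvin cycle, 17 wound and touch, 10 heat shock, 16 auxin, 13 brassinosteroid and 12 Polycomb and DNA methylation genes tested, none passed, and the medians were 0.33, 0.75, 0.33, 0.11, 0.44 and 0.23. Under quantile normalization the Calvin cycle median turned to -0.05, the brassinosteroid one to -0.30 and the Polycomb one to -0.04, and 1 auxin gene fell. The Calvin cycle median was -0.29 without MG replicate 1 and the brassinosteroid one -0.15 without MG replicate 2. The wound and touch list and the heat shock list bear on the protoplasting of the cells: the calmodulin-like gene CML38 (2.43, adjusted p = 0.0964) and the heat-induced ROF2 (-2.83, adjusted p = 0.0747) came nearest to a call in each. Hormone and chromatin genes near the threshold were the auxin-induced GH3.3 (-2.91, adjusted p = 0.0717) and the DNA methyltransferase gene MET1 (2.14, adjusted p = 0.0631).

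None of 8 tested reference transcripts, genes often used for normalization, passed, but 6 had a positive difference and their median was 0.83. ACT2, an actin gene, was at 9.12, 9.20 and 7.68 in SSY and 11.05 and 10.90 in MG (2.31 ± 0.78, adjusted p = 0.142), and TIP41L differed by 2.17 (adjusted p = 0.0829). The medians of the other lists stand beside this value and beside the 0.75 of the highest quartile of genes by level.

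**Figure D5:**
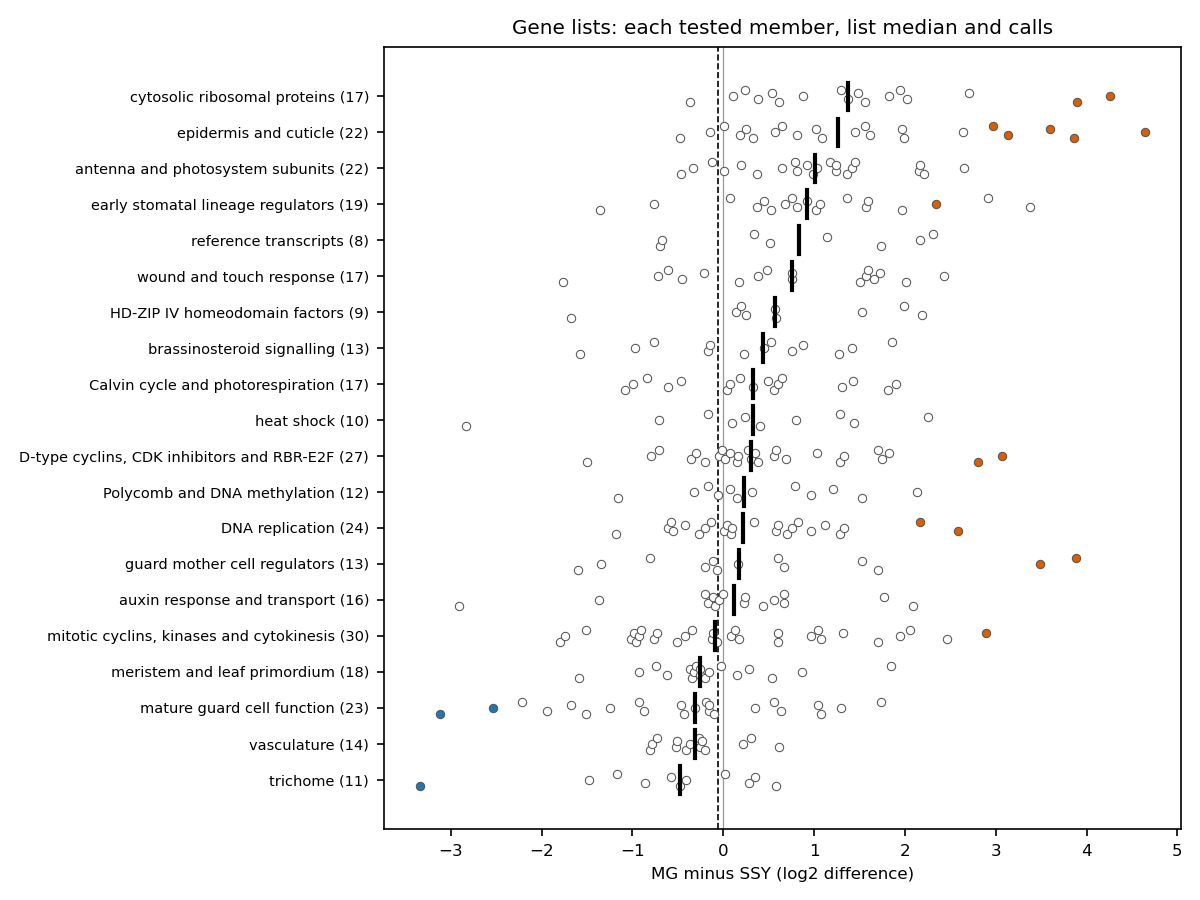
MG minus SSY difference (log2, horizontal axis) of every tested gene in 20 gene lists (rows, with the number tested). Orange points rose, blue points fell, open points were not called, bars are list medians, the dashed line is the median of all tested genes at -0.05 and the grey line is 0. The epidermis and cuticle list (median 1.27) and the ribosomal list (1.37) lie farthest to the right, and the reference transcripts have a median of 0.83.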

How the data were processed

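Log2 expression values per gene, with negative values among them, were deposited by the authors in 1 table of the whole series and were used as deposited. Bowtie2, DESeq2 and the TAIR10 build are named, with no order, per the submitters' processing notes; the read counter, strand handling and exact transformation are not known from the labels or headers used here. A base of 2 was taken because the linear values then sum to 17200000 to 25200000 per library. Read depth is unknown, so no counting intervals are given, and a log2 table allows no count model. The labels' description field speaks of a microarray-based assay, while titles and library fields give RNA sequencing.

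Genes at 3.32 or more in 2 or more of all 11 libraries were tested (29853), and 2 genes without a value were left out. limma 3.58.1 in R 4.3.3 fitted 5 group means to all 11 libraries, which share 1 estimate of spread, with an intensity trend, two-sided tests and Benjamini-Hochberg adjustment over all tested genes at 0.05. The fit was also run on simulated data in which each gene had the same spread in every group. The real groups differ in spread, so that run cannot show how unequal spread affects the calls. SE is the standard error of a difference from that shared estimate, to which the groups with less spread contribute. It can fall short of the spread within MG or SSY: for PI4K GAMMA 7 the SD between the MG libraries was 2.96. A fold is the difference raised from the log2 scale. Contrasts against the mean of ML1Y, FGF and E1728G came from the same fit. The labels do not say that replicates came from separate plants, so p-values measure the spread between these samples, which may be technical. A plan for linear values, log2 after adding 1, was not needed.

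Named genes were the 4 genes that give the lines their names, up to 15 called genes per direction with the largest difference, a symbol, no overlap between the values of the stages and a mean in the higher group of at least 5.51 (the median of all group means), and the up to 4 members of each list with the smallest adjusted p. Members and gene lists were chosen with earlier results of these data known. Names and overlaps came from the TAIR10.1 annotation, where 32835 identifiers matched and 10654 had a symbol; no coordinates or sequences are printed. Alternatives were array weights, no trend, other filters, quantile normalization, median centring, a constant of 1, a replicate block, the 5 libraries alone and leaving out each library.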

Additional observations from a re-analysis of the deposited data

How the results depend on the processing

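The counts of genes called between the stages, 522 higher and 112 lower, moved with the spread estimate and with single libraries. They were 1 and 1 with the 5 libraries alone, 106 and 39 with array weights, 219 and 74 under quantile normalization, and 61 to 668 and 7 to 304 when 1 library was left out. Of the calls with array weights all were among the main ones, and without MG replicate 2 30 of the 61 rises and all 7 falls were. Counts without a trend (765 and 85), with 1 added (521 and 113), without a filter (489 and 82), with a filter at a linear value of 50 (759 and 116), over the members only (548 and 118) and with median centring (634 and 110) stayed within 1.5 times. Rises were 82.3% of calls in the main setting, 50% of the 2 calls with the 5 libraries alone, and from 63.5% without SSY replicate 1, where falls grew to 304 and rises were 529, to 94.4% without MG replicate 1. The count for SSY against the other groups, 1956, became 802 with array weights, 980 with the replicate block and 1021 to 1962 without 1 library; that for MG, 118, became 199 with the filter at 50, 68 under quantile normalization and 37 to 398 without 1 library. The contrasts against other groups have no value with the 5 libraries alone.

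The labels do not tie replicate numbers to a shared batch. Same-numbered SSY and MG libraries, the only pairs checked, did not deviate together (r = 0.028 and 0.027). A fit with the replicate block gave 141 genes higher and 36 lower. Direction reversed for SPCH without MG replicate 1 (-0.0228 in a range up to 1.547 over the fits without 1 library), for GL3, a trichome factor, without MG replicate 1 (range -1.20 to 0.038), and for ATML1 under quantile normalization (-0.0039), with the replicate block (-0.0198) and without SSY replicate 1 or 3 (range -0.0291 to 1.75). The cause of these changes was not tested. Depth is unknown, and 2 or 3 libraries a stage limit the precision.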

Other observations

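Among the 10 tested genes on each side of MUTE on the chromosome, AT3G06130 and AT3G06150 were also called higher in MG. They were chosen after their values were seen. AT3G06130, the second tested gene after MUTE and annotated as a heavy metal transport superfamily protein, was at 5.20, 4.59 and 4.90 in SSY and 7.17 and 8.93 in MG (limma difference 3.15 ± 0.55, adjusted p = 0.0142). AT3G06150, the fifth, was at 5.29, 6.003 and 5.63 in SSY and 7.36 and 10.15 in MG (3.12 ± 0.69, adjusted p = 0.0342). The neighbouring AT3G06160 fell (-2.22, adjusted p = 0.0281), and none of the other genes on either side was called. Over 592 blocks of 50 tested genes in chromosome order, the median block held 1 rise and 264 held none. The highest number was 5, in 2 consecutive blocks that start at AT3G06130 and AT3G06560. MUTE itself lay in the block before these, which held 2 rises. Rises were spread over the chromosomes, with 144, 81, 116, 63 and 115 on chromosomes 1 to 5, or 1.92%, 1.67%, 1.95%, 1.37% and 1.72% of the genes tested there. Near SPCH, AT5G53260, which entered the comparison through SSY alone, fell (-3.30, adjusted p = 0.0292).

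Of the 634 called genes, 183 overlap another gene in the annotation, and how reads on opposite strands were counted is not stated in the labels. The share of all tested genes that overlap another was not counted, so the number is not a trait of the calls.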
